A study of Dendrobium officinale with 6 samples.

Results

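The enzymes that make myo-inositol, oxidise it, and pass galactose through it to raffinose-family sugars were followed in *Dendrobium officinale*, a medicinal orchid. They were 58 of the 157901 assembled unigenes, and 71648 unigenes carried a KEGG ortholog. A unigene was a member when its first listed KEGG ortholog was 1 of 5: myo-inositol-1-phosphate synthase (MIPS, K01858), inositol-phosphate and L-galactose 1-phosphate phosphatase (VTC4, K10047), inositol oxygenase (MIOX, K00469), galactinol synthase (GOLS, K18819) or raffinose synthase (RFS, K06617). No member listed a further ortholog. There were 4 MIPS, 4 VTC4, 6 MIOX, 6 GOLS and 38 RFS unigenes. For 54 of the 58 the best match in the NR protein database was to *Dendrobium catenatum*, and the other 4 matched plants too. These 4 included the main MIPS and MIOX unigenes of PLBs. CL6047.Contig1 matched *Nelumbo nucifera* and held 92.9% of pooled MIPS counts in PLBs. CL12876.Contig5 matched *Phalaenopsis equestris* and held 94.2% of pooled MIOX counts there.

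RNA-seq libraries came from protocorm-like bodies (PLBs) and from leaves, with 3 biological replicates of each tissue. PLBs are small, rounded, embryo-like bodies that orchids form in culture and that can grow into plantlets. The labels give seed explants and a formula of 1/2 MS medium with the auxins NAA (0.5 mg per L) and 2,4-D (1.5 to 2.0 mg per L), the cytokinin 6-BA (1.0 mg per L) and potato juice (100 g per L). They also give tissue culture at 70% humidity and 1600 lx with 16 h of light and 8 h of dark for 60 days. The study describes an induction step and a proliferation step on different media, and which of them gave the sequenced PLBs is not given in the sources used here. The leaves were taken from the original plants, grown in a greenhouse without the medium. Tissue, medium, hormones and growth conditions therefore differed together, and their parts in any difference cannot be told apart. In bulk tissue, fewer cells of a type and less RNA per cell cannot be told apart either.

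In plants, MIPS turns glucose 6-phosphate into inositol phosphate, and a phosphatase then frees myo-inositol. Inositol can be phosphorylated towards phytate, built into membrane phosphoinositides, or opened by MIOX to glucuronic acid, a precursor of cell wall sugars. GOLS joins galactose to inositol to give galactinol, and raffinose synthase moves that galactose to sucrose, making raffinose, a sugar known from seeds and from cold or dry tissue.

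The 6 libraries held 17602153 to 18408442 expected counts (reads assigned to unigenes by the RSEM program, with shared reads divided), and members took 0.083% to 0.122% of them. Leaf libraries were closer to each other than PLB libraries were: chi-square per degree of freedom was 16.6 to 19.5 between PLB libraries, 5.19 to 6.19 between leaf libraries and 162 to 175 between tissues. All 6 leaf mesophyll markers (light-harvesting proteins, the Rubisco small subunit and a photosystem II subunit) were lower in PLBs, with a summed level of 1327 to 2902 TPM in PLBs and 21010 to 24760 TPM in leaves. TPM (transcript abundance scaled for length and library) can be compared between genes. Of 3 measured dividing-cell markers 2 were higher in PLBs. These were MCM2 (mean 158 TPM in PLBs and 29.06 TPM in leaves) and PCNA (32.38 and 13.98 TPM). The third, histone H3, was not (log2 fold change of PLB over leaf -0.19, edgeR adjusted p = 0.153), and its TPM overlapped between the tissues. The summed level of the 3 was 1476 to 1887 TPM in PLBs and 1338 to 1439 TPM in leaves. Histone H3 made up most of that sum, with means of 1492 and 1335 TPM. Since every comparison below sets the same libraries against each other, these marker differences were present in each of them, and their part in the results was not tested.

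Counts were summed per ortholog and compared with edgeR's quasi-likelihood test over 4103 orthologs, where a call needed an adjusted p under 0.05. MIOX was higher in PLBs and the other 4 enzymes were lower. Over all orthologs 37.1% were called higher and 38.6% lower, so a call by itself was common in this comparison. The size of the MIOX difference ranked 4 of 4103, whereas RFS ranked 1496, GOLS 1280, MIPS 1103 and VTC4 443. Changes are log2 fold changes of PLB over leaf with TMM scaling, under which the median over all orthologs was 0.01. The scaling mattered: with library size alone that median was 0.26 and on the TPM scale 0.39, and the share of calls that were higher in PLBs was 49% with TMM, 62.8% with library size and 68.5% on the TPM scale.

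**Figure D1:**
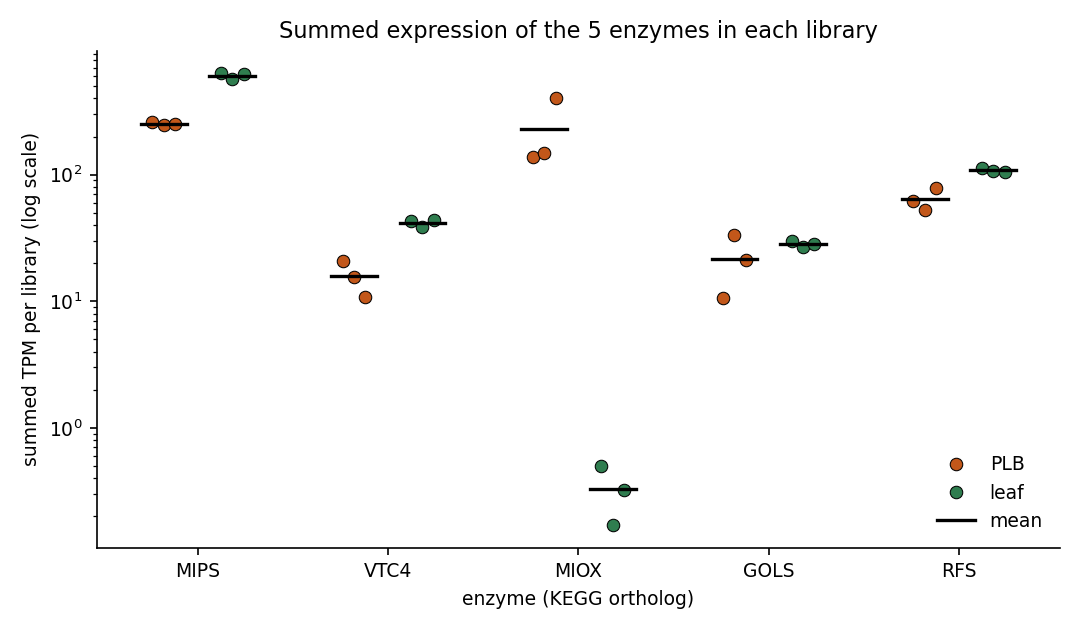
Summed TPM (log axis) of each enzyme in each library, with the 3 PLB libraries left of the 3 leaf libraries and a bar at each mean. MIOX lay at 138 to 403 TPM in PLBs and at 0.17 to 0.50 TPM in leaves, while the points of GOLS overlapped between the tissues.

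The order of the enzymes differed between the tissues, as the plot of summed TPM by library shows. In PLBs it ran from MIPS (254 ± 8.21 TPM, SD, n = 3) and MIOX (230 ± 150) through RFS (64.1 ± 13.1) to GOLS (21.8 ± 11.4) and VTC4 (15.7 ± 5.08). MIPS and MIOX overlapped there, as did GOLS and VTC4. In leaves it ran from MIPS (607 ± 33.5 TPM) through RFS (108 ± 3.81), VTC4 (41.8 ± 2.61) and GOLS (28.4 ± 1.58) to MIOX (0.33 ± 0.17), and no neighbours in that order overlapped. The ratio of MIOX to MIPS in TPM was 0.526, 0.600 and 1.61 in the PLB libraries, and at most 0.000791 in a leaf library.

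MIPS, the entry into inositol synthesis, was lower in PLBs by sum, yet the unigene with most of its counts was not called. The 4 unigenes together had 9735, 9617 and 9024 counts in PLBs, against 17612, 16230 and 16624 counts in leaves. All PLB libraries were below all leaf libraries. The log2 fold change was -1.06 (SE 0.080, edgeR adjusted p = 1.02e-05), or 2.09-fold lower in PLBs.

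The MIPS reads were divided differently among the unigenes in the tissues. CL6047.Contig1 (3565 bp) had 9044, 9063 and 8262 counts in PLBs and 6977, 7113 and 6541 counts in leaves, and its fold change was 0.051 in log2 (SE 0.12, edgeR adjusted p = 0.718). It was not called with TMM, although its TPM did not overlap (236 ± 7.92 in PLBs and 160 ± 3.94 in leaves, n = 3 each), and its log2 fold change was 0.37 (adjusted p = 0.016) with library size alone. So the level of this unigene relative to leaf depended on the scaling.

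CL6047.Contig4 of the same assembly cluster had only 52.6, 44.9 and 40.0 counts in PLBs, against 8251, 7108 and 7732 counts in leaves. Its log2 fold change was -7.69 (SE 0.19, edgeR adjusted p = 1.63e-06). Unigene38893 had 1.53, 1.40 and 1.58 counts in PLBs, against 2346, 1969 and 2325 in leaves (log2 fold change -10.57, SE 0.25, adjusted p = 1.63e-06). In PLBs CL6047.Contig4 was low (2.21 to 2.84 TPM) and Unigene38893 near 0 (0.06 to 0.08 TPM), and both were abundant in every leaf library. Unigene38892 (4076 bp) moved the other way, with 636, 508 and 720 counts in PLBs against 38.5, 39.8 and 26.4 counts in leaves (log2 fold change 3.86, SE 0.23, adjusted p = 1.15e-05). Its Swiss-Prot and Pfam matches were MIPS, but its best NR match was an RNA-directed DNA polymerase. CL6047.Contig1 and Unigene38892 were longer than Unigene38893 (2110 bp), and whether they hold sequence of another gene was not tested. The MIPS sum, the shares below and the ratio of MIOX to MIPS include them, and together they held 92.9% and 6.57% of pooled MIPS counts in PLBs, against 40.9% and 0.207% in leaves.

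**Figure D2:**
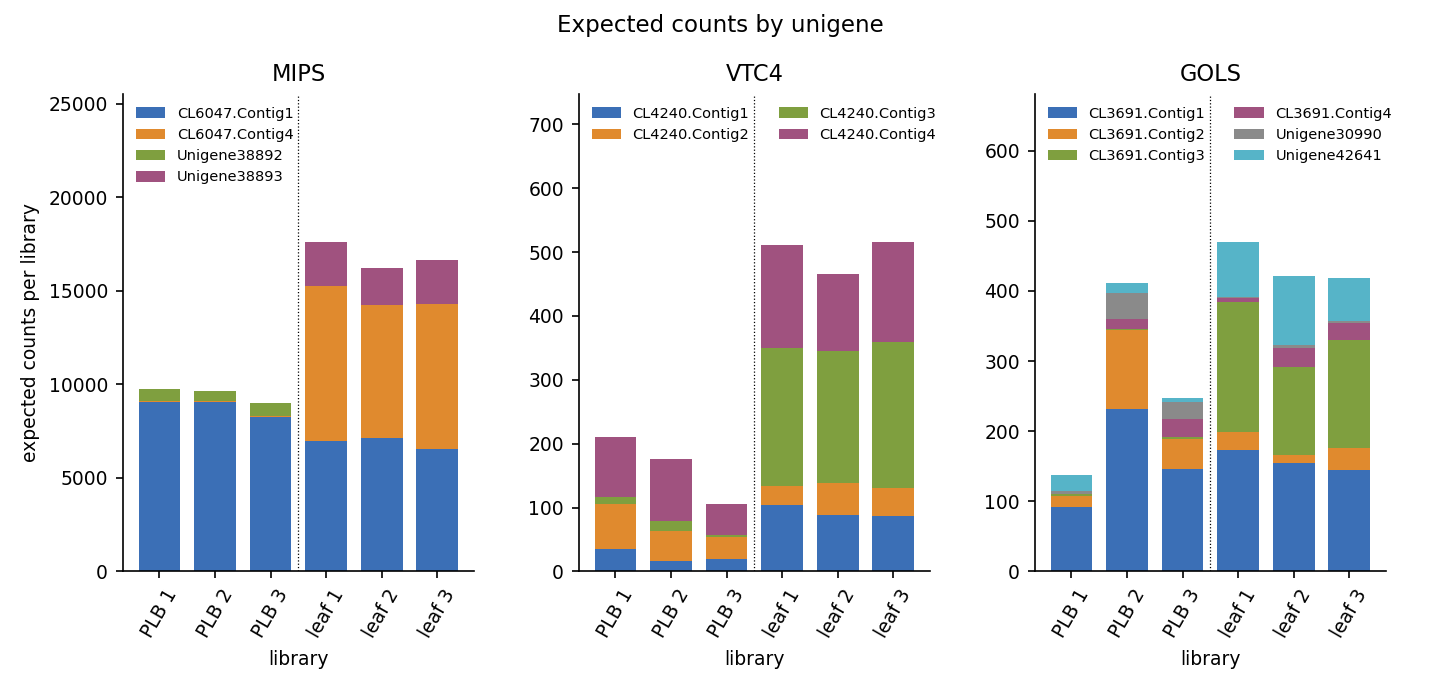
Expected counts of each unigene of MIPS, VTC4 and GOLS, stacked per library, with PLB libraries left of leaf libraries and axes that start at 0. CL6047.Contig1 took 91.6% to 94.2% of MIPS counts in PLBs, and in leaves it shared them with CL6047.Contig4 and Unigene38893.

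As shares of all MIPS counts, CL6047.Contig1 took 92.9%, 94.2% and 91.6% in PLBs, against 39.6%, 43.8% and 39.3% in leaves. CL6047.Contig4 took 0.541%, 0.467% and 0.444% in PLBs, against 46.8%, 43.8% and 46.5% in leaves, and Unigene38893 took 0.0159% of the pooled counts in PLBs and 13.2% in leaves. Neither set of shares overlapped. In an exact two-sided permutation test of such shares, p was 0.1, the smallest that 3 against 3 libraries allow. It was 0.149 after Benjamini-Hochberg adjustment over the 58 unigenes, of which 39 reached that smallest value. RSEM divides reads among similar contigs, and overlapping contigs of a cluster are therefore not independent values. The other contigs of this cluster were annotated as an mTERF domain protein and held at most 24.8 counts over the leaf libraries. Summed over all its contigs, cluster CL6047 fell by 1.06 on the log2 scale (edgeR adjusted p = 0.000158).

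VTC4, which removes the phosphate from inositol phosphate and in *Arabidopsis* also acts on L-galactose 1-phosphate for ascorbate, had the largest fall of the 5 enzymes. Its 4 unigenes, all contigs of cluster CL4240, together had 210, 177 and 105 counts in PLBs, against 512, 467 and 516 counts in leaves. The tissues did not overlap, and PLB 3 was the lowest library. The log2 fold change was -1.84 (SE 0.21, edgeR adjusted p = 9.93e-05), or 3.58-fold lower in PLBs.

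The fall was uneven among its contigs. CL4240.Contig3 had 12.2, 15.7 and 2.92 counts in PLBs, against 216, 206 and 228 counts in leaves (log2 fold change -4.68, SE 0.47, edgeR adjusted p = 0.000104). Its share of VTC4 counts was 6.28% in pooled PLBs and 43.5% in pooled leaves. CL4240.Contig1 had 35.1, 16.0 and 19.5 counts in PLBs, against 104, 88.9 and 87.5 in leaves (-2.31, SE 0.36, adjusted p = 0.00072). CL4240.Contig4 was the main contig in PLBs, with 48.6% of the counts there and 29.5% in leaves. Its log2 fold change of -1.19 (SE 0.32, adjusted p = 0.0107) did not pass the unigene threshold, an adjusted p of at most 0.001 with a log2 change of at least 1. CL4240.Contig2 had 69.8, 46.8 and 34.6 counts in PLBs and 29.6, 49.8 and 43.0 in leaves, which overlapped (-0.01, SE 0.38, adjusted p = 0.987). The call for CL4240.Contig3 was lost without leaf 3 (adjusted p = 0.00107), and that for CL4240.Contig1 was lost without leaf 1, leaf 2, leaf 3, PLB 2 or PLB 3 (adjusted p = 0.00248 to 0.00389) and with library size alone (0.00191).

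MIOX, which opens the inositol ring to glucuronic acid, was abundant in PLBs and had at most 7 counts in a leaf library. The 6 unigenes had 2664, 3033 and 7610 counts in PLBs, against 7, 4 and 7 counts in leaves. PLB 3 stood above the other PLB libraries, and each PLB library was far above each leaf library. The log2 fold change was 9.29 (SE 0.67, edgeR adjusted p = 8.49e-06), or 626-fold higher in PLBs, with the leaf side resting on so few reads that the fold is imprecise. Without PLB 3 the log2 fold change was 8.62, which lowers the fold by more than 1.5 times and keeps the call.

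CL12876.Contig5 (1948 bp) carried 94.2% of MIOX counts in pooled PLBs. It had 2514, 2883 and 7140 counts in PLBs, against 3.47, 4 and 7 counts in leaves (log2 fold change 9.47, SE 0.64, edgeR adjusted p = 1.91e-05). CL12876.Contig4 had 90.4, 73.9 and 236 counts in PLBs and 0 in every leaf library, at least 113-fold higher when the leaf floor is set at 3 counts over the tissue. It was called (adjusted p = 0.000659), and lost the call without leaf 1, leaf 2, leaf 3, PLB 1 or PLB 2 (adjusted p = 0.0021 to 0.00269). CL12876.Contig2, CL12876.Contig3 and Unigene16830 were also at 0 in all leaf libraries and had 107, 176 and 67.2 counts summed over the PLB libraries. They were at least 30.2-fold, 49.8-fold and 18.9-fold higher in PLBs, without passing the unigene threshold (adjusted p = 0.00403, 0.00241 and 0.00378). CL12876.Contig1 was too low to be tested, with 18.3 counts over the PLB libraries and 3.53 over the leaf libraries. Without PLB 3 the log2 fold change was 8.85 for CL12876.Contig5, and for CL12876.Contig4 it was 9.18 without PLB 3 and 9.92 with all libraries. PLB 3 was the highest library for all of these unigenes except CL12876.Contig1.

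GOLS, which commits galactose and inositol to galactinol, was lower in PLBs by a small margin that depended on the scaling and on single libraries. Its 6 unigenes had 138, 411 and 247 counts in PLBs, against 470, 422 and 418 counts in leaves. PLB 2 nearly reached the leaf libraries while PLB 1 was far below them. The log2 fold change was -0.95 (SE 0.32, edgeR adjusted p = 0.0261). In TPM the tissues overlapped, with 10.7, 33.4 and 21.2 in PLBs and 30.0, 26.9 and 28.2 in leaves. The call was lost with library size alone (-0.70, adjusted p = 0.0763) and on the TPM scale (-0.53 with a pseudocount of 0.1, limma adjusted p = 0.204). It was also lost without leaf 1 (adjusted p = 0.0645), leaf 2 (0.0541), leaf 3 (0.0586) or PLB 3 (0.0711).

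Within GOLS, 1 contig differed far more than the sum. CL3691.Contig3 had 3.35, 1.38 and 3.76 counts in PLBs, against 186, 125 and 154 counts in leaves (log2 fold change -6.10, SE 0.43, edgeR adjusted p = 2.27e-05). It held 1.06% of GOLS counts in pooled PLBs and 35.5% in pooled leaves. CL3691.Contig1, the main contig in PLBs at 59.0%, had 91.6, 232 and 146 counts there and 174, 155 and 144 counts in leaves, where it held 36.1%. These values overlapped (-0.30, SE 0.35, adjusted p = 0.456). CL3691.Contig2 overlapped as well, with 16.1, 112 and 41.9 counts in PLBs and 24.6, 11 and 31.9 in leaves (1.03, SE 0.75, adjusted p = 0.245), and its log2 fold change was -0.04 without PLB 2. Unigene42641, outside the cluster, had 23, 15 and 6 counts in PLBs, against 79, 99 and 62 in leaves (-2.74, SE 0.49, adjusted p = 0.00146), just short of the unigene threshold. It passed with DESeq2 (adjusted p = 7.72e-07), by limma on log2(FPKM + 1) (0.000425) and in the edgeR fit on clusters and unclustered unigenes (0.00062). In 11 other settings it stayed short. Of the remaining pair, CL3691.Contig4 had 39.9 counts over the PLB libraries and 55.7 over the leaf libraries, and Unigene30990, matched in Swiss-Prot to galactinol synthase 4, had 64.6 and 9.17. Summed over the cluster, CL3691 did not pass that threshold (-0.94, adjusted p = 0.0515).

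RFS was the largest group and was lower in PLBs by sum. Its 38 unigenes had 2359, 2086 and 2812 counts in PLBs, against 3827, 3766 and 3567 counts in leaves, without overlap. The log2 fold change was -0.85 (SE 0.12, edgeR adjusted p = 0.000406), or 1.80-fold lower in PLBs. The KEGG ortholog does not separate the enzymes of this family. By Swiss-Prot 21 unigenes matched the *Arabidopsis* protein named probable galactinol-sucrose galactosyltransferase 2, 11 matched number 6, 1 matched number 1 and 5 had no match. None matched number 5, the protein known as raffinose synthase in *Arabidopsis*. Number 2 is known there as an alkaline alpha-galactosidase, so the sum is of a family and not of raffinose synthesis alone.

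The assembly clusters of RFS differed. Cluster CL5270 and related unigenes were nearly confined to leaves. CL5270.Contig1 had 0 counts in each PLB library, against 283, 187 and 213 counts in leaves, at least 269-fold lower in PLBs. CL5270.Contig3 had 1, 0 and 0 counts in PLBs, against 212, 176 and 172 counts in leaves (log2 fold change -8.93, SE 0.53, edgeR adjusted p = 1.19e-05). The whole cluster had 2, 0 and 0 counts in PLBs and 547, 443 and 401 counts in leaves. Unigene3626 and Unigene31512 were at 0 in all PLB libraries as well, with 177 and 79.7 counts over the leaf libraries, and were at least 69.6-fold and 31.4-fold lower in PLBs (adjusted p = 0.000181 and 0.0004). CL5270.Contig3, Unigene3626, Unigene31512 and the untested Unigene12573 shared their NR match, an uncharacterized *Dendrobium catenatum* locus. Together the 5 unigenes with no Swiss-Prot match had a level of 0 TPM in PLBs and 20.3 to 27.2 TPM in leaves.

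Cluster CL342, matched to galactosyltransferase 6, held contigs that differed strongly in opposite directions. CL342.Contig7 had 415, 424 and 699 counts in PLBs, against 0, 7.87 and 0 counts in leaves (log2 fold change 7.23, SE 0.77, edgeR adjusted p = 0.000136). CL342.Contig4 had 1.57, 14.1 and 22.5 counts in PLBs, against 380, 429 and 451 in leaves (-5.30, SE 0.56, adjusted p = 0.000131). Neither pair overlapped. CL342.Contig9 (5785 bp) was the main RFS contig in leaves, with 516, 377 and 355 counts in PLBs, against 833, 871 and 760 in leaves (-1.29, SE 0.16, adjusted p = 0.000296). CL342.Contig8 had 248, 207 and 372 counts in PLBs and 192, 182 and 118 in leaves, and was not called (0.45, SE 0.28, adjusted p = 0.178). CL342.Contig2 had 202, 255 and 268 counts in PLBs, against 20.9, 24.8 and 0 in leaves. It was not called either (3.68, SE 0.78, adjusted p = 0.00355). Summed, CL342 had 1614, 1449 and 2035 counts in PLBs and 1894, 1963 and 1750 counts in leaves, and was not called at the unigene threshold (-0.48, adjusted p = 0.011). In TPM its sum overlapped between the tissues.

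Some of these values and calls rested on single libraries or on the scaling. All leaf counts of CL342.Contig7 came from leaf 2, and its log2 fold change was 11.87 without leaf 2, 6.61 without leaf 1 and 6.64 without leaf 3. Its size is therefore not a precise value, and the call was lost without leaf 3 (adjusted p = 0.00115). CL342.Contig4 lost it without leaf 2, leaf 3 or PLB 2 (0.00107 to 0.00127), and its log2 fold change was -5.98 without PLB 3. CL342.Contig9 lost it without leaf 1, leaf 2, leaf 3 or PLB 2 (0.00146 to 0.00215), with library size alone (-0.97, adjusted p = 0.00134) and by limma on log2(FPKM + 0.1) and log2(FPKM + 1) (-0.97 and -0.84, adjusted p = 0.00193 and 0.00111).

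Cluster CL150, with 21 contigs matched to galactosyltransferases 2 and 1, was lower in PLBs by sum. It had 743, 623 and 762 counts in PLBs, against 1251, 1320 and 1287 counts in leaves (log2 fold change -1.20, SE 0.11, edgeR adjusted p = 2.7e-05). CL150.Contig12 was its most abundant contig in leaves, with 124, 124 and 129 counts in PLBs, against 380, 365 and 486 in leaves (-2.02, SE 0.19, adjusted p = 7.32e-05). CL150.Contig13 was the 1 contig of this cluster called higher, while 3 were called lower. It had 40.0, 20.6 and 43.2 counts in PLBs and 0 in each leaf library, at least 29.3-fold higher. CL150.Contig3 was the most abundant contig of the cluster in PLBs, with 198, 241 and 236 counts there, against 24.5, 17.0 and 0 in leaves. It did not pass the unigene threshold (3.74, SE 0.77, adjusted p = 0.00311). CL150.Contig19 had 0 counts in each PLB library, against 88.5, 106 and 67.2 in leaves, at least 103-fold lower. CL150.Contig20 and CL150.Contig8 were at 0 in all 6 libraries. Between them the contigs of CL150 thus ranged from absent in leaves to absent in PLBs.

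**Figure D3:**
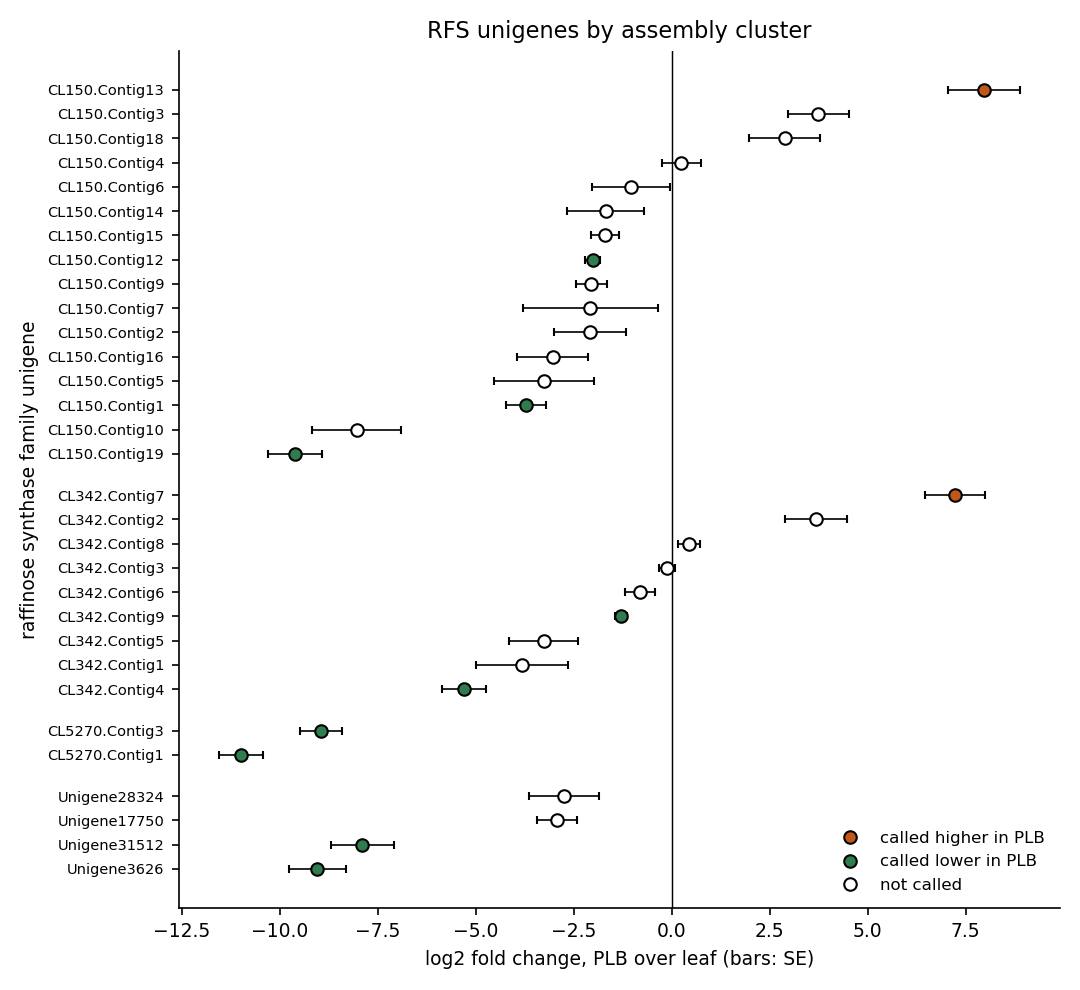
Log2 fold change of PLB over leaf (bars, SE) for the 31 RFS unigenes tested, grouped by assembly cluster, with filled points where a unigene passed the threshold. CL150 and CL342 held unigenes on both sides of 0, while both CL5270 contigs lay below -8, and values of unigenes at 0 in a tissue depend on the prior count of the fit and are no bound.

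Over all members, 49 of the 58 unigenes passed the filter on low counts, 5 were called higher in PLBs and 14 lower, and 30 were tested and not called. Over all 70383 unigenes tested, 16.8% were called higher and 22.9% lower. The 5 higher were CL12876.Contig4, CL12876.Contig5, Unigene38892, CL150.Contig13 and CL342.Contig7, of which the first pair were MIOX. The 14 lower were 9 RFS, 2 MIPS, 2 VTC4 and 1 GOLS unigene. At 0 in leaves only were 5 members, 4 of them MIOX, and at 0 in PLBs only were 8, all RFS. The share of all unigenes at 0 in a single tissue was not computed, so these counts cannot be read as particular to the members. Several of these unigenes are also contigs of the same cluster, among which RSEM divides reads. Without leaf 1, leaf 2 or leaf 3 the count of lower calls was 8, 7 and 6. The count of higher calls was 3 without leaf 1, leaf 2, PLB 1 or PLB 2.

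The other enzymes around inositol were read from lists of KEGG orthologs, of which 31 were tested, 10 were called higher in PLBs and 10 lower. Over all orthologs 37.1% were called higher and 38.6% lower. With library size alone 18 were higher and 7 lower, so the even split holds only relative to TMM. Over all 4103 orthologs 2017 were higher and 1195 lower with library size alone. Whether any list below differed from these shares was not tested. Among 10 orthologs of inositol and inositol phosphates 1 was higher and 3 were lower, with a median log2 fold change of -0.17. With library size alone that median was 0.08, with 4 higher and 2 lower.

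The largest difference in that list was in myo-inositol-1(or 4)-monophosphatase (K01092, 45 unigenes), the other ortholog that frees inositol. It had 200, 201 and 162 TPM in PLBs, against 1470, 1638 and 1406 TPM in leaves (log2 fold change -3.24, SE 0.11, edgeR adjusted p = 3.04e-07). The tissues did not overlap, and the direction was that of VTC4. Glucuronokinase (K16190), which phosphorylates the glucuronic acid that MIOX makes, was lower in PLBs at 51.6 ± 3.66 TPM against 77.8 ± 7.47 TPM in leaves (SD, n = 3 each; -0.91, adjusted p = 3.62e-05). It moved opposite to MIOX. The next enzyme of that route, UDP-sugar pyrophosphorylase (K12447), was not called (0.40, SE 0.19, adjusted p = 0.0815), and neither was UDP-glucose dehydrogenase (K00012), which makes UDP-glucuronic acid without inositol (0.08, SE 0.16, adjusted p = 0.668).

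Towards phytate, inositol-1,3,4-trisphosphate 5/6-kinase (K00913) was lower at 44.6 ± 5.31 TPM in PLBs against 55.7 ± 2.15 TPM in leaves (log2 fold change -0.53, adjusted p = 0.00376), a call lost with library size alone (adjusted p = 0.0508). The diphosphoinositol kinase K13024 was higher at 38.8 ± 1.89 TPM in PLBs against 19.9 ± 0.77 TPM in leaves (0.47, adjusted p = 0.000688). The inositol transporter ortholog (K08150, 81 unigenes) was not called (0.03, SE 0.08, adjusted p = 0.737).

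Of 11 phosphoinositide enzymes tested 6 were higher and 1 was lower, with a median log2 fold change of 0.21. The shares over all orthologs were 37.1% higher and 38.6% lower. With library size alone 10 were higher and 1 was lower, where 2017 of all 4103 orthologs were higher and 1195 lower. An inositol polyphosphate 5-phosphatase ortholog (K01099) had 110, 119 and 108 TPM in PLBs, against 18.7, 18.8 and 18.5 TPM in leaves (1.66, SE 0.07, edgeR adjusted p = 8.01e-07). Its groups were tight and far apart, and on the TPM scale the log2 fold change was 2.58. Phosphatidylinositol 4-kinase A (K00888) had 25.0, 17.5 and 30.0 TPM in PLBs, against 15.2, 17.1 and 15.4 TPM in leaves (1.40, SE 0.15, adjusted p = 7.15e-05). On the TPM scale its log2 fold change was only 0.57 (limma adjusted p = 0.0242), still called. Phosphatidylinositol 4-kinase B (K19801) changed by 0.51 (adjusted p = 0.004). These kinases make the phosphatidylinositol 4-phosphate of membranes. Phosphatidylinositol synthase (K00999), which joins inositol to the lipid, was the lower member (-0.75, adjusted p = 9.25e-05).

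**Figure D4:**
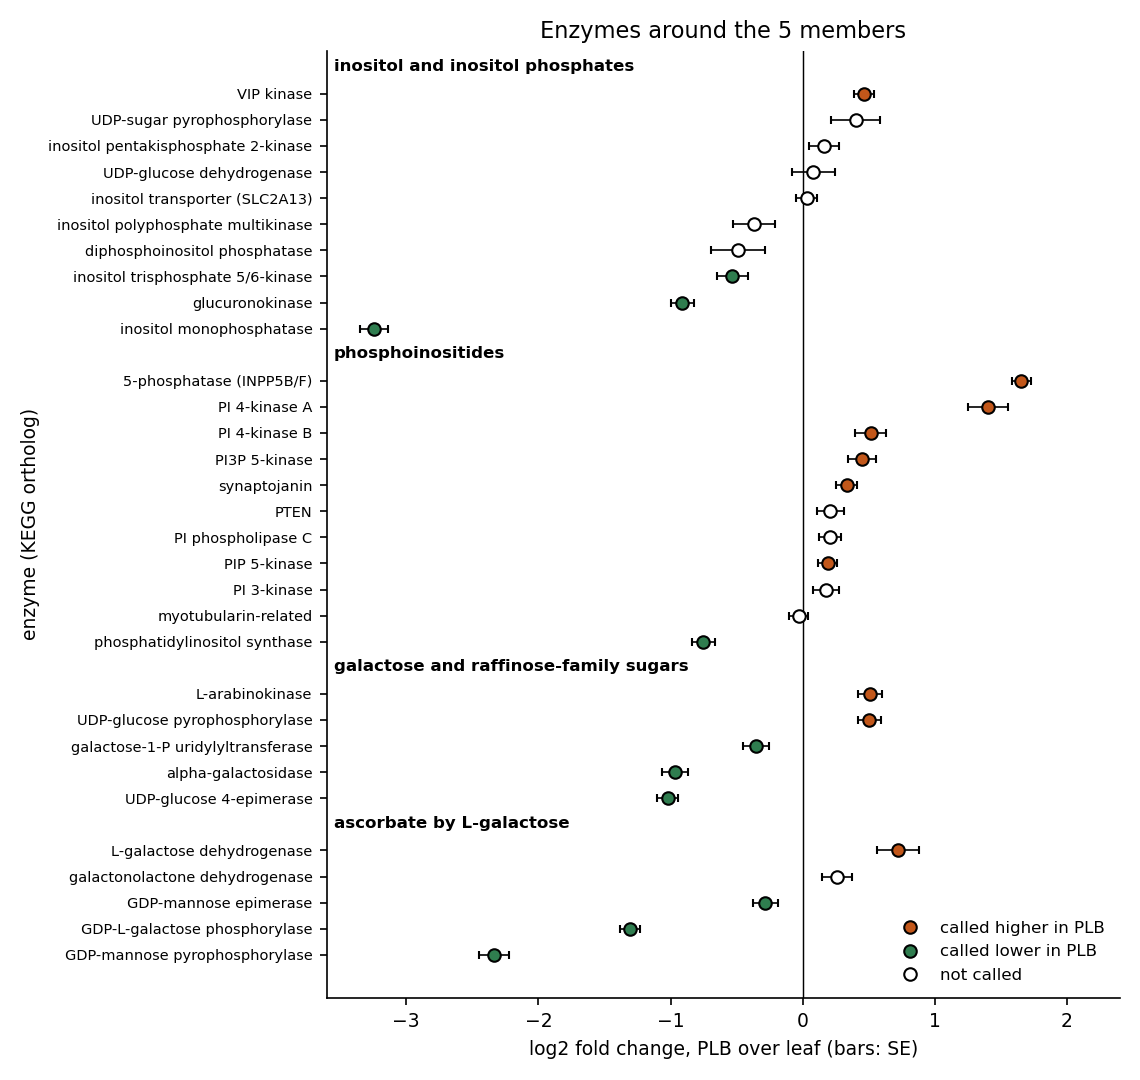
Log2 fold change of PLB over leaf (bars, SE) for 31 KEGG orthologs around the members, by list, with filled points where the adjusted p was under 0.05. Inositol monophosphatase (K01092) lay lowest at -3.24 and the 5-phosphatase (K01099) highest at 1.66.

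Of the galactose and raffinose-family orthologs 5 of 7 had a unigene, and all 5 were called, 2 higher and 3 lower (2 and 2 with library size alone). Most orthologs were called in this comparison, 37.1% higher and 38.6% lower. UDP-glucose 4-epimerase (K01784), which makes the UDP-galactose that GOLS uses, was lower with 98.0, 87.6 and 79.1 TPM in PLBs, against 135, 132 and 137 TPM in leaves (log2 fold change -1.02, SE 0.08, edgeR adjusted p = 1.4e-05). Counting unigenes that list K01784 anywhere gave -2.04. Alpha-galactosidase (K07407), which splits galactose from raffinose, was lower with 141, 156 and 176 TPM in PLBs, against 234, 239 and 241 TPM in leaves (-0.97, SE 0.10, adjusted p = 4.72e-05). Neither overlapped between tissues. Galactose-1-phosphate uridylyltransferase (K00965) was slightly lower (-0.35, adjusted p = 0.0123), a call lost without leaf 1 (adjusted p = 0.0503) with library size alone (0.359) and in limma on log2 TPM with a pseudocount of 0.1 or 1 (0.0834 and 0.0826). UDP-glucose pyrophosphorylase (K00963), a source of UDP-glucose, was higher at 368 ± 33.6 TPM in PLBs against 183 ± 11.5 TPM in leaves (0.51, adjusted p = 0.00119). L-arabinokinase (K12446) was higher too (0.51, adjusted p = 0.00113). No unigene had stachyose synthase (K06611) as its first ortholog.

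VTC4 also belongs to ascorbate synthesis through L-galactose, and of 5 other orthologs there 1 was higher and 3 were lower (2 and 2 with library size alone). Among all orthologs the shares called were 37.1% higher and 38.6% lower. Mannose-1-phosphate guanylyltransferase (K00966), the GDP-mannose pyrophosphorylase, had 336, 294 and 259 TPM in PLBs, against 973, 1128 and 970 TPM in leaves (log2 fold change -2.34, SE 0.11, edgeR adjusted p = 1.41e-06). GDP-L-galactose phosphorylase (K14190), the step ahead of VTC4, had 269, 246 and 244 TPM in PLBs, against 472, 491 and 481 TPM in leaves (-1.30, SE 0.08, adjusted p = 2.86e-06). Both were without overlap. L-galactose dehydrogenase (K17744), the step after VTC4, was higher (0.72, SE 0.16, adjusted p = 0.00341). GDP-mannose epimerase (K10046) was called lower (-0.28, adjusted p = 0.0257), with a sign that turned on the TPM scale (0.14, limma adjusted p = 0.206). That call was also lost with library size alone (-0.04, adjusted p = 0.751) and without leaf 1 (adjusted p = 0.107), leaf 3 (0.0841), PLB 1 (0.0509) or PLB 3 (0.0718).

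The orthologs whose centred log2 TPM over the 6 libraries lay nearest to each enzyme, among 4100 compared, were found by Euclidean distance. For MIOX they were perilipin-4 (K20254, distance 2.33), midchain alkane hydroxylase (K15405, 2.63) and nicotianamine synthase (K05953, 2.81), each with a mean of 0.683 TPM or less in leaves. These distances were larger than those found for the other enzymes. For MIPS they were the protease FtsH (K03798, 0.15), Snapin (K20002, 0.155) and threonylcarbamoyladenine synthase (K01409, 0.179). For VTC4 they were phosphomannomutase (K17497, 0.181), phosphoglycerate kinase (K00927, 0.232) and 2-methylene-furan-3-one reductase (K18980, 0.234). For GOLS they were ribosomal protein S30e (K02983, 0.544), NAD(P)H-quinone oxidoreductase subunit 5 (K05577, 0.698) and thiosulfate:glutathione sulfurtransferase (K01013, 0.703). For RFS they were EIN3-binding F-box protein (K14515, 0.206), APH-1A (K06172, 0.223) and an uncharacterized protein (K09919, 0.238). The measure covers 6 libraries of 2 tissues only. These names are KEGG ortholog labels, and what the orchid genes that carry them encode was not examined.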

How the data were processed

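Deposited tables of 157901 unigenes were used for 3 PLB and 3 leaf libraries, sequenced on a BGISEQ-500. The study assembled reads with Trinity and clustered contigs with Tgicl, so names that share a CL number are contigs of 1 cluster. The submitters' processing notes name Bowtie2 2.2.5 and RSEM 1.2.8, whereas the study's methods name BLAST for mapping. The expected counts were estimated by the authors per unigene, and 59.1% to 64.9% of those above 0 were not whole. The TPM and FPKM values were also deposited by the authors, scaled per length and per library. Columns of the authors' own comparison (fold changes, p and q values) were not used.

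Expected counts were rounded, summed by first listed KEGG ortholog, filtered with filterByExpr, scaled by TMM (factors of 1.08 to 1.09 in PLBs and 0.914 to 0.924 in leaves) and tested with edgeR 4.0.16 in R 4.3.3, with Benjamini-Hochberg adjustment over 4103 orthologs. The same fit was run on 70383 unigenes and on 36425 clusters or unclustered unigenes. Each SE was derived from the test, as the absolute log2 fold change divided by the square root of the F statistic. For unigenes at 0 in a tissue it therefore depends on the prior count too. Alternatives were DESeq2 1.42.0, RLE factors, library size alone, TMM factors of the unigene fit, no filter, an ortholog anywhere in the list, limma 3.58.1 on log2(TPM + 0.1) and log2(TPM + 1), the top unigene alone, other thresholds and each library left out. Only the ortholog fit was checked on simulated counts, drawn with a common dispersion and with few changed orthologs, balanced in direction. That check does not cover the unigene and cluster fits, or a comparison with as many changes as this one. A gene at 0 in a tissue was given a floor of 3 counts over that tissue.

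Named were the 5 orthologs, unigenes with at least 10% of an ortholog's counts in either tissue, the called unigene that rose most and the one that fell most per ortholog with a mean FPKM of at least 1, the 3 neighbours called that rose most and the 3 that fell most per list, and the 3 nearest orthologs (mean TPM of at least 1). Other unigenes were named after their values were seen: those at 0 in a tissue, CL5270.Contig3, CL150.Contig3, CL342.Contig2, CL3691.Contig4, Unigene30990, CL12876.Contig1 and the remaining higher calls. So were the neighbours K12447, K00012 and K08150. The members and lists were chosen with earlier results of these data known. Replicates were biological according to the study, so the tests set a difference against the variation between 3 samples a tissue. That variation was estimated with dispersion information shared over genes. Counting error limits low unigenes.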

Additional observations from a re-analysis of the deposited data

How the results depend on the processing

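The calls for MIPS, VTC4, MIOX and RFS kept their direction and their side of the threshold under DESeq2, RLE factors, library size alone, unigene TMM factors, no filter, orthologs anywhere in the list, limma on TPM and every left-out library. The 1 exception was MIPS by its most abundant unigene alone, at 0.051 (adjusted p = 0.718). With a library left out, log2 fold changes ranged from 8.62 to 9.56 for MIOX, and GOLS from -1.39 to -0.63. GOLS was not called with library size alone (-0.70), limma on log2(TPM + 0.1) (-0.53) or log2(TPM + 1) (-0.50), or by its most abundant unigene (-0.30). K10046 turned to 0.14 under both limma fits. Member unigenes called higher numbered 5, against 10 with DESeq2 and 3 to 4 with a library left out. At an adjusted p under 0.05 with no minimum fold they numbered 11. Those called lower numbered 14, against 19 with DESeq2, 25 at the looser threshold and 6 to 13 with a library left out. With counts summed over a cluster the units were clusters and unclustered unigenes, which are fewer than the unigenes. Of these units 2 were called higher and 9 lower, which cannot be set against the counts of unigenes. Neighbours called higher numbered 10, against 18 with library size alone. Apart from the change of unit from unigene to cluster, the cause of these changes was not tested. No paired analysis was possible because the labels give no replicate numbers and tie no PLB library to a leaf library by plant or batch. The numbers used here only name libraries. Depth limits the leaf values of MIOX and contigs with a few counts.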
